A study of Homo sapiens with 18 samples.

Results

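The 38 genes described here are the transcription factors, targets and amino acid genes of the ATF4 stress response, taken by symbol from the 60642 gene symbols counted in each library. All 38 symbols were present in the files, and 35 passed a filter on low counts that left 15298 genes. They comprise 6 transcription factors and feedback genes, 6 stress effectors, 4 eIF2 kinases and phosphatase subunits, 5 enzymes of asparagine, proline, cysteine and carbon metabolism, 9 serine and one-carbon enzymes and 8 amino acid transporters. RNA was sequenced from MDA-MB-231 cells, an established human TNBC line of mesenchymal-like type grown in high-glucose medium with serum. The paper states that before experiments its cells were kept in charcoal-stripped serum and medium free of phenol red. The cells were transfected with a pool of siRNAs against PRMT5 (siPRMT5), against HP1γ (siHP1γ) or with a non-specific siRNA (siNS). Each was then given 100 nM Dex, a synthetic GC, or the ethanol vehicle (Eth) for 8 h. The 6 conditions had 3 biological replicates each, and 18 libraries in all. Because 1 cell line and 1 siRNA pool per target were used, effects of a pool on other transcripts could not be told apart from those of the depletion.

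ATF4 is a transcription factor whose mRNA is translated more when eIF2, the factor that brings the initiator tRNA to the ribosome, is phosphorylated by stress kinases such as PERK and GCN2. It then activates genes for amino acid uptake, for the synthesis of asparagine, serine and glycine, for one-carbon metabolism and for tRNA charging, together with feedback genes that restore translation or limit the response. In tumor cells the pathway is known for keeping amino acids and cysteine in supply. Its activity is set largely at the protein level, which mRNA counts do not show.

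Reads counted on genes came to 8682992 in the shallowest library and 12472381 in the deepest. Levels are given as CPM, read counts brought to a common library size with edgeR's TMM factors, and are compared only within a gene. PRMT5 mRNA fell from 249 to 7.40 CPM in siPRMT5 Eth and from 239 to 10.5 CPM in siPRMT5 Dex. CBX3, which encodes HP1γ, fell from 255 to 9.88 CPM in siHP1γ Eth and from 230 to 13.7 CPM in siHP1γ Dex. PRMT5 was itself slightly lower in siHP1γ cells, by -0.25 and -0.35 on the log2 scale (adjusted p = 0.0111 and 0.00123). TSC22D3 and FKBP5, textbook GR targets, rose with Dex under each siRNA. Their Dex response in siHP1γ cells differed from that in siNS cells by -1.003 for TSC22D3 (adjusted p = 0.00104, edgeR). For FKBP5 this difference was -0.44 and did not pass (adjusted p = 0.0588). In siPRMT5 cells the Dex response of FKBP5 was larger than in siNS cells by 0.84 (adjusted p = 2.31e-05, edgeR). That of TSC22D3 differed there by -0.40, which did not pass (adjusted p = 0.125). The libraries had the mesenchymal genes VIM, CD44, AXL, CAV1 and ZEB1 and at most 2 counts of ESR1, PGR or CDH1. SPARC was low (5.80 to 10.7 CPM) and the epithelial gene EPCAM was present at 8.56 to 13.98 CPM. GATA3 (2.68 to 7.46 CPM), FOXA1 (3.26 to 10.25 CPM) and ERBB3 (1.81 to 6.43 CPM), also expected low, had counts in every library. So had the endothelial gene PECAM1 (1.1 to 8.1 CPM), while KRT19 had at most 5 counts. MTAP and CDKN2A, neighbouring genes lost in this line, had 0 counts in all 18 libraries (limit 0.0163 CPM). No replicates were as alike as sampling noise alone would make them, and siHP1γ Dex replicates 1 and 3 were the least alike (chi-square of 12.4 for each degree of freedom).

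Many promoters bound by ATF4 and its C/EBP partners carry a composite element, of which the core TGATGNAA was searched on both strands in RefSeq promoter windows (GRCh38.p14, 250 bases before to 50 after each annotated start). Of the 38 genes, 32 had windows, and 9 of those (28.1%) held a match: ATF3, CHAC1, PPP1R15B, ASNS, MTHFD1L, SLC3A2, SLC7A1, SLC1A5 and SLC1A4. A match was found in 4.46% of 27305 genes with windows, and in 2.75% of the 10035 of these that were tested. NUPR1, PYCR1, PSPH, SHMT2, ALDH1L2 and SLC7A11 had no window in the table. A match is a stretch of letters, and binding was not measured. The stretches below, 80 bases each written 5′ to 3′ on the gene's strand, show the core in capitals for 3 genes that were lower in siPRMT5 cells and for PPP1R15B, which was higher, and were chosen after these values were seen. That of CHAC1 (chr15:40953226-40953305, plus strand) holds the core in reverse orientation, 209 bases before the start, that of ASNS (chr7:97872433-97872512, minus strand) 68 bases before, that of MTHFD1L (chr6:150866321-150866400, plus strand) 129 bases before one of its annotated starts and that of PPP1R15B (chr1:204411988-204412067, minus strand) 227 bases before.
CHAC1: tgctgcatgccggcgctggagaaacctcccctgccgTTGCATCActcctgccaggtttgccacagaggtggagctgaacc
ASNS: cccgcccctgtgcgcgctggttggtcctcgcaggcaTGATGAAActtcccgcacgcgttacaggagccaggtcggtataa
MTHFD1L: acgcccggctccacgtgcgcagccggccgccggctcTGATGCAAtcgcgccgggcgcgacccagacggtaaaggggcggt
PPP1R15B: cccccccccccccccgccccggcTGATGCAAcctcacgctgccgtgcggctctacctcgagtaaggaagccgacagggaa

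Depletion of PRMT5 was compared with siNS to see which transcripts need this arginine methyltransferase, which the study examines as a GR coregulator. In cells without Dex, 25 of the 35 genes tested were lower and 2 (VLDLR and PPP1R15B) were higher. The background was 21.6% of 15298 genes lower and 20.6% higher. With Dex, 24 were lower and 1 (PPP1R15B) was higher, against a background of 21.9% and 20.6%. The median log2 fold change of the 35 was -0.42 without Dex and -0.43 with Dex, and that of all genes tested was 0.00 in both. Genes were called at an adjusted p under 0.05 in edgeR's quasi-likelihood fit of all 18 libraries. Asking also for a 1.5-fold change left 14 genes in each comparison, all lower except PPP1R15B with Dex, beside 17.9% and 16.9% of all genes in either direction. The 38 genes together held 0.310% to 0.352% of a library's counts in the 6 siPRMT5 libraries and 0.422% to 0.440% in the 6 siNS libraries. In RNA of bulk cells, fewer cells of a state and less RNA per cell cannot be told apart.

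**Figure D1:**
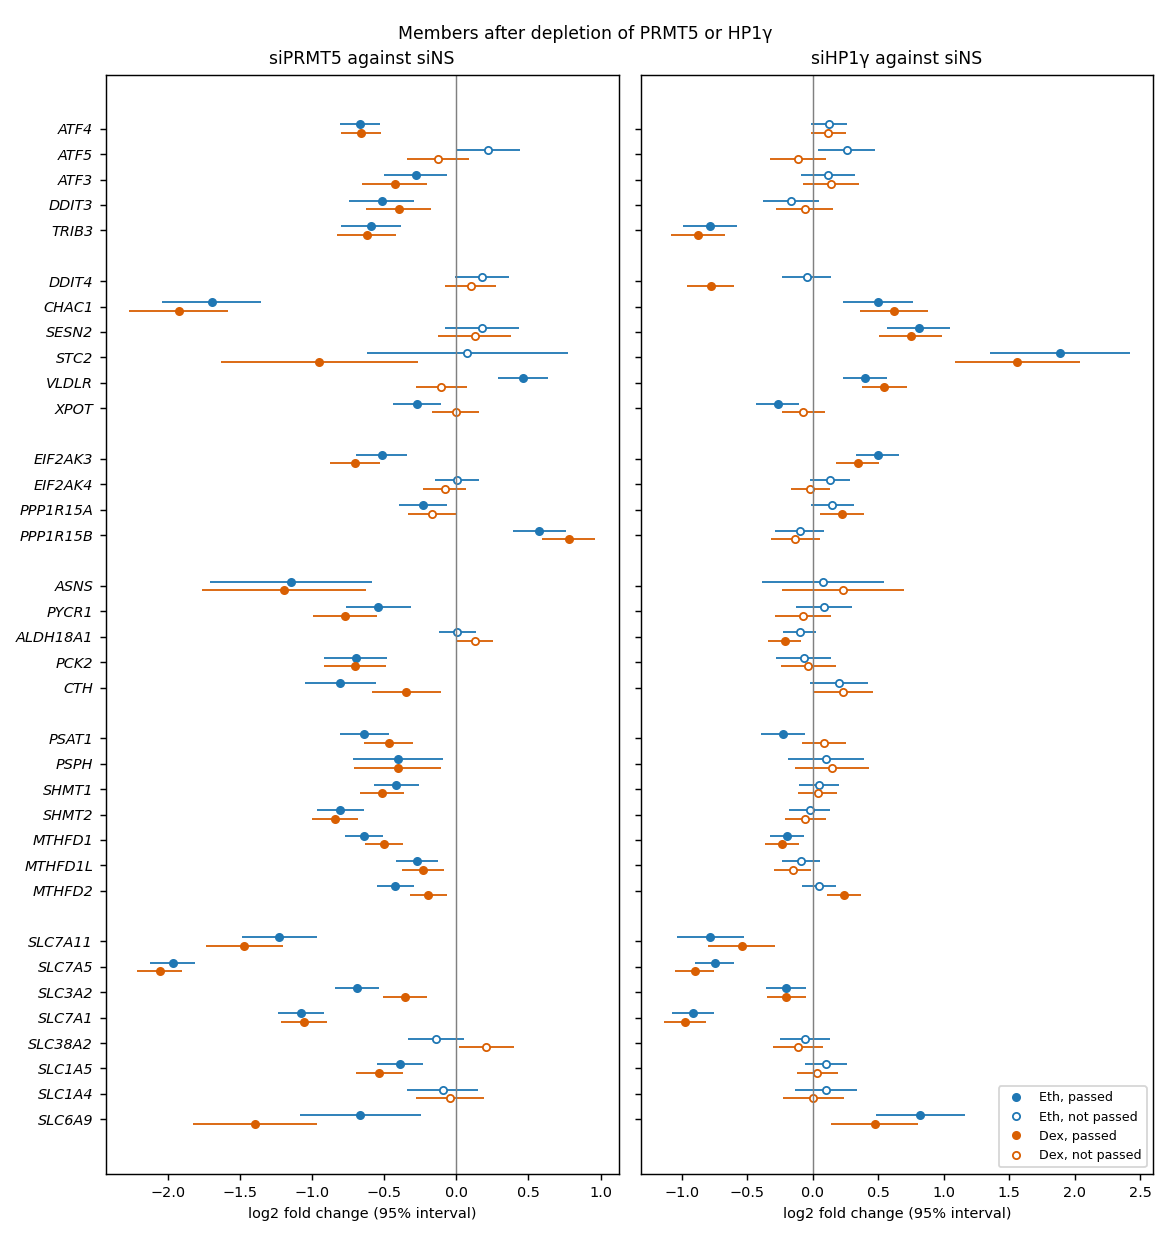
Log2 fold changes of the 35 genes tested, with 95% intervals, for siPRMT5 against siNS (left) and siHP1γ against siNS (right), without Dex (blue) and with Dex (orange); filled points passed an adjusted p of 0.05, and genes are ordered by role. Most points on the left lie below 0, with SLC7A5 and CHAC1 farthest, while on the right 6 filled points lie above and 8 below 0 without Dex, and 8 above and 8 below with Dex.

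ATF4 itself, on chromosome 22 of hg38 from 39519695 to 39522683, was lower. Its level was 288, 305 and 313 CPM in siNS Eth and 204, 180 and 185 CPM in siPRMT5 Eth. With Dex it was 320, 304 and 295 CPM in siNS and 211, 187 and 184 CPM in siPRMT5. Every siPRMT5 library was below every siNS library. The log2 fold change was -0.67 without Dex (SE 0.0674, adjusted p = 1.17e-08) and -0.66 with Dex (SE 0.0671, adjusted p = 1.47e-08), which leaves 62.8% and 63.4%. These are changes of the mRNA, and the ATF4 protein was not measured here.

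Among the other transcription factors, DDIT3, which encodes CHOP, a factor tied to stress-induced death, fell by 0.52 on the log2 scale without Dex and by 0.40 with Dex (adjusted p = 0.000442 and 0.00445). TRIB3, a pseudokinase that restrains ATF4, was 56.4, 60.1 and 59.6 CPM in siNS Eth and 41.9, 36.9 and 37.9 CPM in siPRMT5 Eth, groups that did not overlap. It fell by 0.59 without Dex (adjusted p = 3.02e-05) and by 0.62 with Dex (adjusted p = 1.45e-05). ATF3, a stress-induced repressor, fell by 0.28 and 0.43 (adjusted p = 0.0337 and 0.0027). The ATF3 call without Dex was lost in 5 of the 18 fits that left out 1 library: without any 1 of the 3 siNS Eth libraries, and without siPRMT5 Eth replicate 1 or 3. It was also lost with DESeq2, with no filter on low counts and in a fit of only the libraries compared. ATF5, a relative of ATF4, was not called, at 0.22 without Dex (adjusted p = 0.105) and -0.13 with Dex. NUPR1, a stress-induced chromatin protein, had 0 to 12 counts a library and was not tested.

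CHAC1, which degrades glutathione and is a late marker of the response, showed the second largest decrease among the 35 genes in both comparisons. It was 14, 11.1 and 12.1 CPM in siNS Eth and 4.18, 4.46 and 2.90 CPM in siPRMT5 Eth. The levels with Dex were 14.2, 11.6 and 11.2 CPM in siNS and 3.42, 3.45 and 2.83 CPM in siPRMT5. The lowest siNS library lay far above the highest siPRMT5 library in both treatments. CHAC1 fell by 1.70 on the log2 scale without Dex (SE 0.167, adjusted p = 8.71e-09) and by 1.92 with Dex (SE 0.166, adjusted p = 7.97e-10), leaving 30.9% and 26.4%.

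Of the other effectors, XPOT fell without Dex and STC2 with Dex. SESN2, which relays leucine shortage and stress to mTORC1, was not called in siPRMT5 cells, at 0.18 and 0.13 (adjusted p = 0.259 and 0.438). DDIT4, an inhibitor of mTORC1 that GCs induce, was not called either, at 0.18 and 0.10 (adjusted p = 0.115 and 0.376). VLDLR, a lipoprotein receptor, rose by 0.46 without Dex (adjusted p = 6.74e-05) and was at -0.11 with Dex (adjusted p = 0.348). XPOT, which exports tRNA from the nucleus, fell by 0.28 without Dex (adjusted p = 0.00749) and was at -0.00 with Dex (adjusted p = 0.969). STC2, a secreted glycoprotein of calcium and phosphate balance, was at 0.07 without Dex (adjusted p = 0.884). With Dex it fell by 0.95 (SE 0.331, adjusted p = 0.0226), at levels of 0.678 to 1.96 CPM and with a call that was lost without siNS Dex replicate 1 or 2, or siPRMT5 Dex replicate 2 or 3.

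The kinases and phosphatase subunits that act on eIF2 moved in different directions. EIF2AK3, which encodes PERK, was 43.98, 43.1 and 40.9 CPM in siNS Eth and 27.6, 32.2 and 29.6 CPM in siPRMT5 Eth. It fell by 0.52 without Dex (SE 0.0858, adjusted p = 2.33e-05) and by 0.70 with Dex (SE 0.0836, adjusted p = 2.05e-07). EIF2AK4, which encodes the amino acid sensor GCN2, was at 0.00 and -0.08 (adjusted p = 0.972 and 0.405).

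PPP1R15B, the constitutive subunit that directs a phosphatase to eIF2 and so reverses the stress signal, was the one gene higher in siPRMT5 cells in both treatments. It was 122, 110 and 112 CPM in siNS Eth and 162, 161 and 190 CPM in siPRMT5 Eth. In the Dex libraries it was 116, 97.9 and 113 CPM in siNS and 174, 204 and 183 CPM in siPRMT5. The groups did not overlap in either treatment. It rose by 0.58 (SE 0.0899, adjusted p = 1.08e-05) and 0.78 (SE 0.0895, adjusted p = 1.12e-07). PPP1R15A, the stress-induced counterpart (GADD34), fell by 0.23 without Dex (adjusted p = 0.0214, lost without siNS Eth replicate 2 or 3 or siPRMT5 Eth replicate 3) and was at -0.17 with Dex (adjusted p = 0.095).

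**Figure D2:**
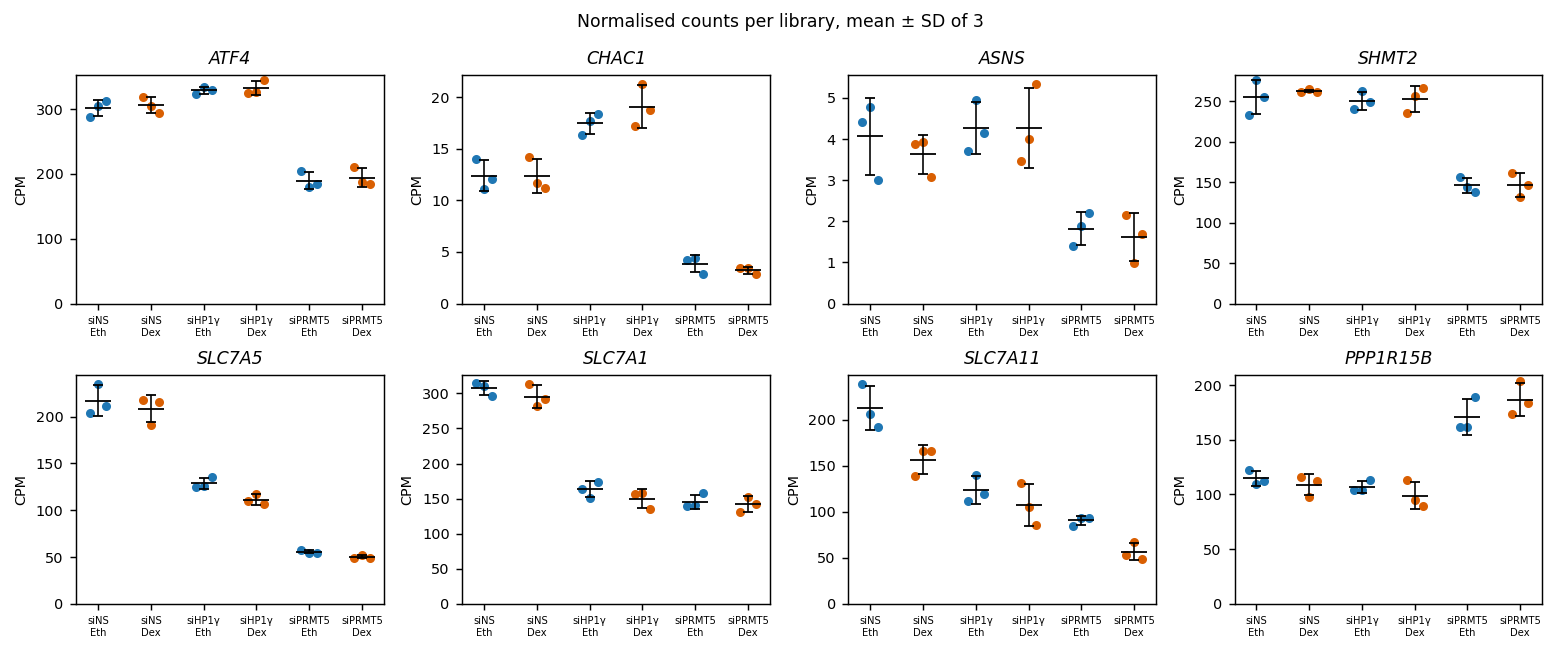
CPM of 8 genes in each of the 18 libraries (points; blue Eth, orange Dex), with the mean and SD of the 3 replicates of a condition (black), each panel on its own linear axis from 0. ATF4, CHAC1, ASNS and SHMT2 are lower in siPRMT5 libraries alone, SLC7A5, SLC7A1 and SLC7A11 are lower in siHP1γ and siPRMT5 libraries, and PPP1R15B is higher in siPRMT5 libraries.

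Of the 5 enzymes of asparagine, proline, cysteine and carbon metabolism, 4 were lower in siPRMT5 cells in both treatments. The same held for 2324 of all 15298 genes tested. ASNS, which makes asparagine and is the textbook ATF4 target, was 4.41, 4.78 and 3.00 CPM in siNS Eth and 1.39, 1.88 and 2.20 CPM in siPRMT5 Eth. Its Dex levels were 3.88, 3.92 and 3.08 CPM in siNS and 2.15, 0.985 and 1.70 CPM in siPRMT5. The groups did not overlap, although ASNS rested on 12 to 57 counts a library. Its log2 fold change was -1.15 (SE 0.273, adjusted p = 0.00136) and -1.19 (SE 0.276, adjusted p = 0.00102). In GENCODE 44, 2415 of its 4896 exon bases are shared with another gene on the same strand, ENSG00000284707, and how reads there were assigned is not given in the sources used here.

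PYCR1, the last step of proline synthesis, fell by 0.54 without Dex and by 0.77 with Dex (adjusted p = 0.000258 and 2.28e-06). PCK2, the mitochondrial enzyme that makes phosphoenolpyruvate, fell by 0.70 in both (adjusted p = 8.19e-06 and 5.67e-06). CTH, which makes cysteine from cystathionine, fell from 16.2 ± 0.552 CPM (SD, n = 3) to 9.27 ± 0.314 CPM without Dex in edgeR's fit (log2 fold change -0.80, SE 0.119, adjusted p = 5.39e-06). With Dex CTH fell by 0.35 (adjusted p = 0.0172), a call that was lost without siNS Dex replicate 3 or siPRMT5 Dex replicate 1. ALDH18A1, the first step of proline synthesis, was not called, at 0.01 and 0.13 (adjusted p = 0.936 and 0.0926).

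Of all 15298 genes tested, 2324 were lower in siPRMT5 cells both without and with Dex. All 7 serine and one-carbon enzymes that were tested were among these. SHMT2, the mitochondrial enzyme that splits serine into glycine and a one-carbon unit, moved the most. It was 234, 276 and 255 CPM in siNS Eth and 156, 144 and 138 CPM in siPRMT5 Eth. The Dex libraries had 262, 265 and 262 CPM in siNS and 162, 132 and 147 CPM in siPRMT5. No siPRMT5 library came near a siNS library in either treatment. The log2 fold change was -0.80 (SE 0.0780, adjusted p = 6.51e-09) and -0.84 (SE 0.0776, adjusted p = 2.56e-09), or 57.3% and 55.9% of siNS.

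SHMT1, the cytosolic counterpart, fell by 0.41 and 0.52 (adjusted p = 6.97e-05 and 3.31e-06). PSAT1, the second step of serine synthesis, fell from 224 ± 9.84 CPM (SD, n = 3) to 144 ± 10.3 CPM without Dex in edgeR's fit (log2 fold change -0.64, adjusted p = 7.21e-07) and by 0.47 with Dex (adjusted p = 4.99e-05). MTHFD1, the cytosolic folate enzyme, fell by 0.64 and 0.50 (adjusted p = 1.1e-08 and 4.97e-07). The mitochondrial enzymes MTHFD2 and MTHFD1L changed less than MTHFD1. The changes were -0.42 and -0.20 for MTHFD2 (adjusted p = 5.52e-06 and 0.0137) and -0.27 and -0.23 for MTHFD1L (adjusted p = 0.00281 and 0.00927). With Dex, the MTHFD2 call was lost without siPRMT5 Dex replicate 3 and with no filter on low counts, and the MTHFD1L call without siNS Dex replicate 3 or siPRMT5 Dex replicate 2. PSPH, the last step of serine synthesis, fell by 0.40 and 0.41 (adjusted p = 0.0346 and 0.0282). The PSPH calls were lost when counts of its pseudogene PSPHP1, 15.5% of its own, were added (-0.33 and -0.24, adjusted p = 0.0537 and 0.156, an alternative chosen after seeing the data), and in 4 of the fits that left out 1 library, in each comparison.

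PHGDH, the first step of serine synthesis, had 0 to 2 counts a library and 9 in all, with 11 libraries at 0. ALDH1L2, a mitochondrial folate enzyme, had 0 to 7 counts. Neither could be tested, so the fall of PSAT1 and PSPH stood beside a first enzyme whose mRNA was near the limit of detection in every condition.

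The transporters held the largest decrease of the 35 genes. SLC7A5, the LAT1 chain that takes up leucine and other large neutral amino acids, lies on chromosome 16 from 87830023 to 87869507. It was 204, 235 and 212 CPM in siNS Eth and 57.4, 54.3 and 54.8 CPM in siPRMT5 Eth. After Dex it was 218, 192 and 216 CPM in siNS and 48.9, 51.9 and 49.4 CPM in siPRMT5. The highest of the 6 siPRMT5 libraries, at 57.4 CPM, was far below the lowest of the 6 siNS libraries, at 192 CPM. SLC7A5 fell by 1.97 (SE 0.0756, adjusted p = 2.34e-16) and 2.06 (SE 0.0757, adjusted p = 7.04e-17), leaving 25.6% and 24.0%. SLC3A2, which encodes the heavy chain 4F2hc that pairs with SLC7A5 or SLC7A11, fell less, by 0.69 without Dex and 0.35 with Dex (adjusted p = 4.16e-08 and 0.000329).

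SLC7A11, the cystine carrier of system xc-, was 239, 206 and 192 CPM in siNS Eth and 84.9, 93.4 and 93.7 CPM in siPRMT5 Eth. After Dex it was 138, 165 and 166 CPM in siNS and 53.1, 66.7 and 49.0 CPM in siPRMT5, again without overlap. It fell by 1.23 (SE 0.126, adjusted p = 1.65e-08) and 1.47 (SE 0.130, adjusted p = 1.14e-09). Its exons overlap SLC7A11-AS1 on the other strand, and the strand setting of the counting is not given in the sources used here.

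SLC7A1, the CAT1 carrier of arginine and lysine, was 315, 310 and 296 CPM in siNS Eth and 139, 141 and 157 CPM in siPRMT5 Eth. It fell to 47.5% without Dex (SE 0.0782 of a log2 fold change of -1.07, adjusted p = 3.43e-11) and to 48.1% with Dex (adjusted p = 4.02e-11). SLC6A9, the glycine carrier GLYT1, fell by 0.67 without Dex (SE 0.203, adjusted p = 0.0101) and by 1.40 with Dex (SE 0.208, adjusted p = 5.95e-06), at 1.37 to 4.50 CPM in these libraries. SLC1A5, the glutamine carrier ASCT2, fell by 0.39 and 0.53 (adjusted p = 0.000241 and 4.59e-06). SLC38A2, the neutral amino acid carrier SNAT2, and SLC1A4, a carrier of alanine, serine and cysteine, were not called in either comparison.

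Depletion of HP1γ, a reader of methylated histone H3, was compared with the same siNS libraries, so that the siHP1γ and siPRMT5 contrasts share their controls. In siHP1γ cells without Dex, 6 of the 35 genes were higher and 8 lower, against a background of 16.5% higher and 15.2% lower. With Dex, 8 were higher and 8 lower, against 11.7% and 12.3%. Their median log2 fold change was 0.05 without Dex and -0.02 with Dex, beside 0.01 and 0.00 over all genes tested. When libraries were scaled by library size only, the split became 9 higher and 5 lower without Dex and 10 higher and 5 lower with Dex. The share of higher genes among all genes called then moved from 52.1% to 63.8% and from 48.7% to 69.2%, so small changes in siHP1γ cells depended on the scaling. Asking also for a 1.5-fold change left 7 of the 35 in each treatment, 3 higher and 4 lower, beside 9.85% and 7.35% of all genes in either direction.

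ATF4 in siHP1γ cells was 323, 334 and 330 CPM with Eth and 325, 327 and 345 CPM with Dex. Each of these libraries lay above each siNS library of its treatment, yet the differences of 0.12 (95% interval -0.01 to 0.26, adjusted p = 0.162) and 0.12 (-0.02 to 0.25, adjusted p = 0.206) did not pass, and with scaling by library size only both did. ASNS, PYCR1, PCK2, CTH, PSPH, SHMT1, SHMT2, MTHFD1L and SLC1A5, all lower in siPRMT5 cells, were likewise not called in siHP1γ cells, where SHMT2, for example, was at -0.02 and -0.06 (adjusted p = 0.842 and 0.638).

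The genes higher in siHP1γ cells in both treatments were CHAC1, SESN2, STC2, VLDLR, EIF2AK3 and SLC6A9. SESN2 was 14.3, 18.6 and 16.2 CPM in siNS Eth and 29.3, 26.1 and 30.9 CPM in siHP1γ Eth, groups well apart. It rose by 0.81 without Dex (SE 0.117, adjusted p = 8.86e-06) and 0.75 with Dex (SE 0.117, adjusted p = 3.3e-05). STC2 was 1.43, 1.32 and 0.827 CPM in siNS Eth and 4.13, 4.57 and 4.59 CPM in siHP1γ Eth. This low gene rose by 1.89 (SE 0.258, adjusted p = 4.03e-06) and by 1.56 with Dex (SE 0.232, adjusted p = 1.59e-05), and it was not tested where at least 10 counts were asked of every library. VLDLR rose by 0.40 and 0.54 (adjusted p = 0.000604 and 2.23e-05).

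CHAC1, EIF2AK3 and SLC6A9 were lower in siPRMT5 cells and higher in siHP1γ cells. CHAC1 was 16.3, 17.7 and 18.3 CPM in siHP1γ Eth and 17.2, 21.3 and 18.8 CPM in siHP1γ Dex, above all siNS libraries, and rose by 0.50 (SE 0.129, adjusted p = 0.00434) and 0.62 (SE 0.125, adjusted p = 0.000646). EIF2AK3 was 57.9, 62.6 and 59.5 CPM in siHP1γ Eth, also above all siNS libraries, and rose by 0.49 and 0.34 (adjusted p = 3.88e-05 and 0.00226). SLC6A9 rose by 0.82 without Dex (adjusted p = 0.000427) and 0.47 with Dex (adjusted p = 0.0344, lost with DESeq2 and in 5 fits that left out 1 library).

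**Figure D3:**
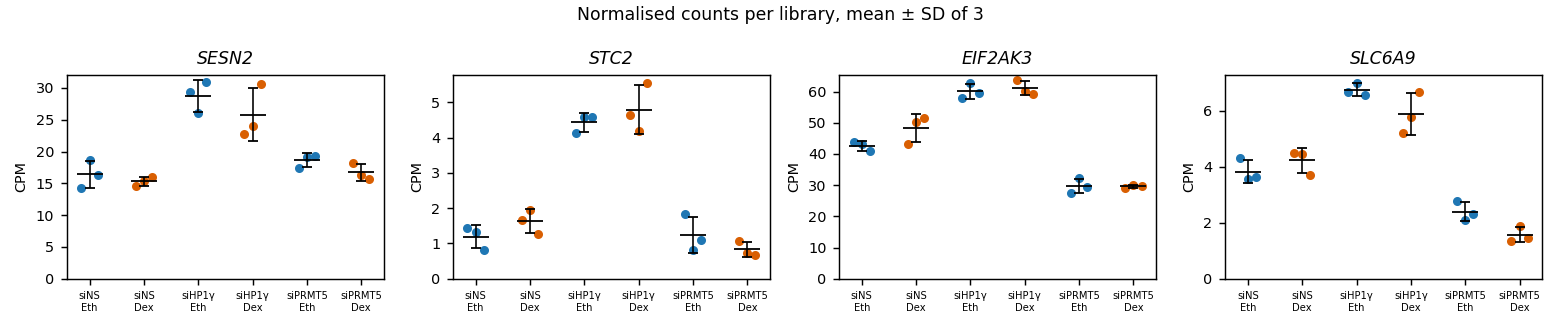
CPM of SESN2, STC2, EIF2AK3 and SLC6A9 in each library (points; blue Eth, orange Dex), with the mean and SD of 3 replicates (black), on linear axes from 0. The siHP1γ libraries are the highest in all 4 panels; EIF2AK3 and SLC6A9 are lowest in siPRMT5 libraries.

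Calls in one treatment alone were XPOT and PSAT1, lower without Dex at -0.27 and -0.23, MTHFD2 and PPP1R15A, higher with Dex at 0.24 and 0.22, and DDIT4 and ALDH18A1, lower with Dex at -0.78 and -0.22. Of these, that of PPP1R15A (adjusted p = 0.0469) was lost in most fits that left out 1 library, with XPOT, PSAT1 and ALDH18A1 lost in some alternatives.

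The genes lower in siHP1γ cells in both treatments were TRIB3, MTHFD1, SLC7A11, SLC7A5, SLC3A2 and SLC7A1, 4 of them transporters. SLC7A1 was 164, 151 and 174 CPM in siHP1γ Eth and fell by 0.91 (SE 0.0775, adjusted p = 2.15e-09). With Dex it was 157, 158 and 134 CPM and fell by 0.98 (SE 0.0775, adjusted p = 7.05e-10). These are close to the siPRMT5 levels above, and no siHP1γ library reached a siNS library. SLC7A5 was 125, 126 and 136 CPM in siHP1γ Eth and 110, 118 and 106 CPM in siHP1γ Dex, between the siPRMT5 and siNS libraries. It fell by 0.75 and 0.90 (adjusted p = 1.38e-08 and 6.73e-10). TRIB3 fell by 0.78 and 0.88 (adjusted p = 1.63e-06 and 3.28e-07), and SLC7A11 by 0.78 and 0.54 (adjusted p = 2.58e-05 and 0.00203). MTHFD1 and SLC3A2 fell by at most 0.24, and these calls were lost with library size only.

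Set directly against siHP1γ cells, siPRMT5 cells had 24 of the 35 genes lower and 2 higher without Dex (background 25% lower and 23.4% higher), and 23 lower and 5 higher with Dex (background 25.5% and 24.4%). Asking also for a 1.5-fold change left 13 and 15, beside 21.8% and 23% of all genes in either direction. CHAC1 differed the most in both, by -2.19 (SE 0.158, adjusted p = 2.16e-11) and -2.54 (SE 0.157, adjusted p = 9.8e-13). STC2 differed by -1.81 and -2.51, SLC6A9 by -1.49 and -1.87 and EIF2AK3 by -1.01 and -1.04 (all adjusted p under 0.05). PPP1R15B was higher in siPRMT5 cells by 0.68 and 0.91 (adjusted p = 8.25e-07 and 5.02e-09). ATF4 differed by -0.79 and -0.78 (adjusted p = 4.08e-10 and 4.94e-10), and SLC7A5 by -1.22 and -1.15 (adjusted p = 1.29e-12 and 3.05e-12). SLC7A1 did not pass, at -0.16 without Dex (95% interval -0.32 to -0.00, adjusted p = 0.0904) and -0.08 with Dex (-0.24 to 0.08, adjusted p = 0.428). TRIB3 was at 0.19 without Dex (adjusted p = 0.136) and higher by 0.26 in siPRMT5 cells with Dex (adjusted p = 0.0386, lost with library size only, among others).

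The comparisons without and with Dex use different libraries. Of the genes lower in siPRMT5 cells, 23 were lower in both treatments, which is 92% of the 25 without Dex and 95.8% of the 24 with Dex. For all genes tested these shares were 70.5% and 69.5%. In siHP1γ cells, the 6 genes higher in both were 100% of those without Dex and 75% of those with Dex, beside 42.6% and 60.3% of all genes, and the 6 lower in both were 75% and 75%, beside 52.4% and 64.8%. Across the 35 genes, which are not independent of each other, the log2 fold changes without and with Dex correlated with r = 0.872 for siPRMT5 (same sign in 30) and r = 0.922 for siHP1γ (same sign in 31). These correlations were not computed over all genes tested, so they cannot be called particular to the 35.

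**Figure D4:**
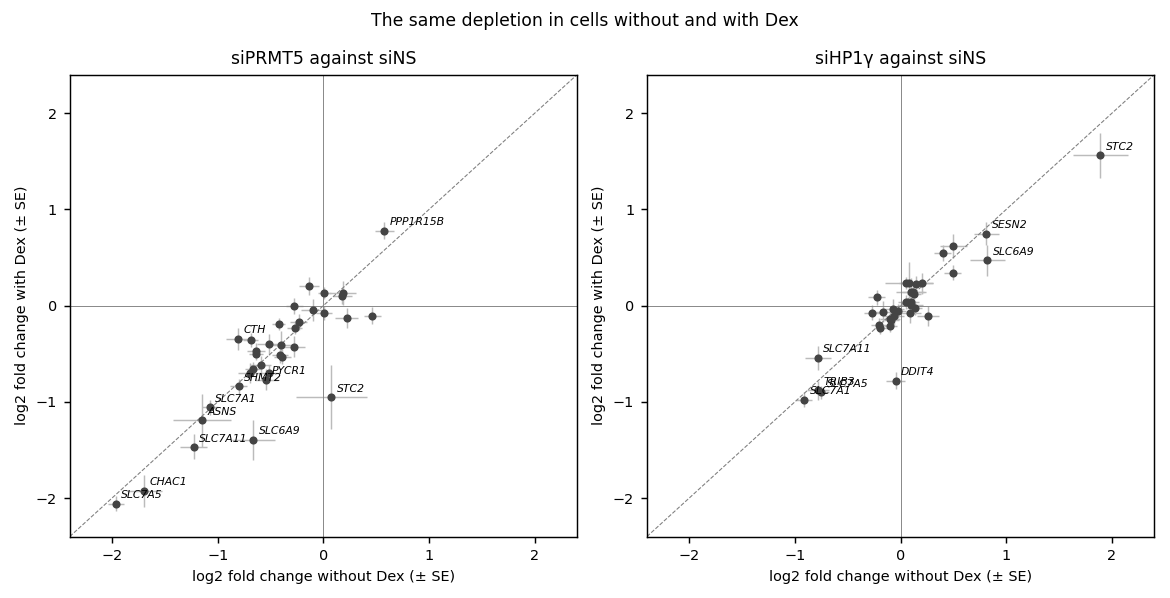
Log2 fold change with Dex against that without Dex for the 35 genes (points, with SE bars), for siPRMT5 (left) and siHP1γ (right), with equal changes on the dashed line. SLC7A5 and CHAC1 lie at the lower left of the siPRMT5 panel, and STC2, SLC6A9 and VLDLR (not labelled) lie off its line. Of the 35, only VLDLR passed edgeR's test of the difference between the siPRMT5 and siNS Dex responses (-0.57). DDIT4 lies off the line in the siHP1γ panel at -0.05 without Dex and -0.78 with Dex.

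The Dex response was called where the adjusted p was under 0.01 and the fold change 1.5 or more, a rule chosen for this comparison. In siNS cells, 1 of the 35 genes was higher and 0 were lower with Dex, beside 1.65% and 1.06% of all genes tested. In siHP1γ cells, 0 were called in either direction by edgeR's quasi-likelihood test and 0 by DESeq2, beside 1.01% and 0.66% of all genes, while 6 of the 35, and 18% of all genes, had an unadjusted p under 0.05. In siPRMT5 cells, 2 were higher and 2 lower, beside 2.69% and 2.75%. At an adjusted p under 0.05 without a limit on the fold, 4, 2 and 7 of the 35 genes were called in siNS, siHP1γ and siPRMT5 cells, beside 9.16%, 5.55% and 16% of all genes tested. ATF4, CHAC1, ASNS and SHMT2 did not pass with Dex under any siRNA, and ATF4 was at 0.02, 0.01 and 0.03.

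DDIT4 was the gene that Dex raised in siNS cells. It was 92.4, 102 and 96.8 CPM in siNS Eth and 193, 181 and 213 CPM in siNS Dex, a rise of 1.01 (SE 0.0886, adjusted p = 3.65e-09). In siPRMT5 cells it was 116, 116 and 97.6 CPM with Eth and 225, 189 and 216 CPM with Dex, a rise of 0.93 (SE 0.0881, adjusted p = 8e-09). In siHP1γ cells it was 91.7, 99.3 and 91.1 CPM with Eth and 109, 105 and 128 CPM with Dex, a difference of 0.28 that did not pass (95% interval 0.10 to 0.46, adjusted p = 0.0687). The highest siHP1γ Dex library was thus at 128 CPM and the lowest of the other Dex libraries at 181 CPM. The test of the difference in Dex response gave -0.73 for siHP1γ against siNS (SE 0.125, adjusted p = 0.00404), with 0.281% of all genes called lower and 0.118% higher in that test. For siPRMT5 against siNS, DDIT4 gave -0.08 (95% interval -0.34 to 0.18, adjusted p = 0.779).

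The other Dex calls were in siPRMT5 cells. SLC38A2 was 391, 393 and 450 CPM with Eth and 677, 727 and 611 CPM with Dex, a rise of 0.71 (SE 0.0936, adjusted p = 2.55e-06). In siNS cells it was 510, 416 and 433 CPM with Eth and 600, 538 and 608 CPM with Dex, a difference of 0.36 that did not pass (adjusted p = 0.0121), and the test between these responses did not pass (0.35, adjusted p = 0.143). SLC7A11 fell by 0.68 with Dex in siPRMT5 cells (adjusted p = 0.000429) and was at -0.44 in siNS cells (adjusted p = 0.0204) and -0.20 in siHP1γ cells (adjusted p = 0.43). The test between the siPRMT5 and siNS responses of SLC7A11 did not pass either (-0.24, adjusted p = 0.501).

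VLDLR was 58.6, 63.0 and 60.2 CPM in siPRMT5 Eth and 34.8, 33.2 and 38.3 CPM in siPRMT5 Dex, a fall of 0.78 (SE 0.0842, adjusted p = 9.67e-08) between groups that did not overlap. In siNS cells it was 45.1, 45.5 and 41.4 CPM with Eth and 37.8, 36.6 and 39.8 CPM with Dex (-0.21, adjusted p = 0.136). The responses differed by -0.57 (SE 0.120, adjusted p = 0.00685). In that test 2.23% of all genes were called lower and 1.58% higher, and VLDLR was the only one of the 35, although DESeq2 also called SLC3A2. With a 1.5-fold limit as well, edgeR called 0 of the 35 there and 2.07% of all genes. PPP1R15A was lower with Dex under each siRNA by less than the fold limit, at -0.47, -0.40 and -0.41 (adjusted p = 0.000173, 0.0019 and 0.000598).

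**Figure D5:**
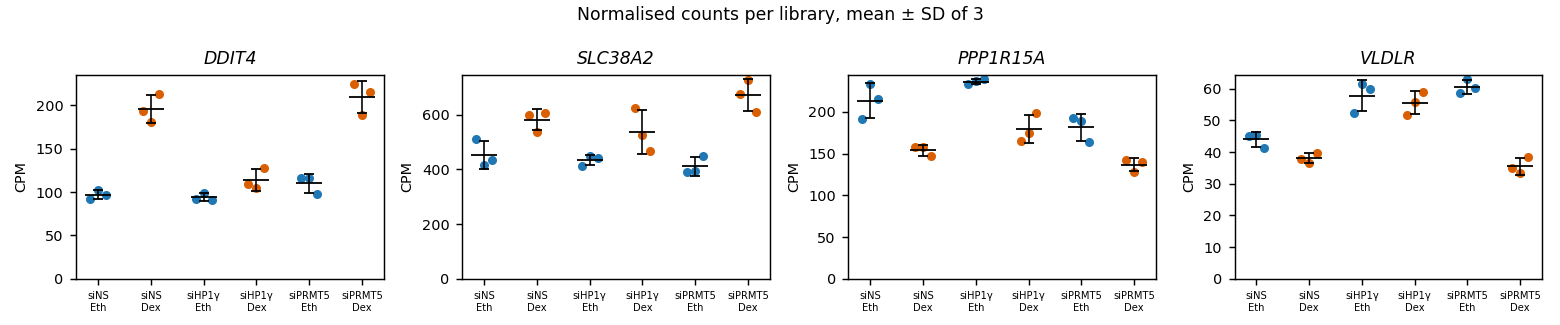
CPM of DDIT4, SLC38A2, PPP1R15A and VLDLR in each library (points; blue Eth, orange Dex), with the mean and SD of 3 replicates (black), on linear axes from 0. DDIT4 means rise from 97.1 to 196 CPM in siNS and from 110 to 210 CPM in siPRMT5 libraries, and are 94.0 and 114 CPM in siHP1γ libraries, and VLDLR is lower with Dex in siPRMT5 libraries.

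Genes next to these in the pathway were read from lists of known function, chosen with earlier results of these data known. The background for their counts is that given above: in siPRMT5 cells 21.6% of all genes lower and 20.6% higher without Dex and 21.9% and 20.6% with Dex, and in siHP1γ cells 15.2% lower and 16.5% higher without Dex and 12.3% and 11.7% with Dex. Of 16 other ATF4 targets tested, 9 were lower and 3 higher in siPRMT5 cells without Dex, and 9 lower and 5 higher with Dex. JDP2, a bZIP repressor, fell by 1.71 and 1.67 (adjusted p = 3.92e-09 and 5.09e-11), and CEBPG, a C/EBP factor that pairs with ATF4, fell by 0.84 and 0.73 (adjusted p = 3.43e-11 and 3.39e-10). SLC33A1, the acetyl-CoA carrier, fell by 1.01 and 0.54, and MAP1LC3B, an autophagy protein, by 0.89 and 0.47 (all adjusted p under 0.05). In siHP1γ cells, 5 of the 16 were higher and 1 lower without Dex, and 2 higher and 0 lower with Dex, with CEBPG at 0.07 and 0.10 (adjusted p = 0.415 and 0.234).

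Against the same 21.6% lower and 20.6% higher without Dex and 21.9% and 20.6% with Dex, of 22 genes of the XBP1 and ATF6 arms of the unfolded protein response, which acts in parallel to PERK, 11 were lower and 0 higher in siPRMT5 cells without Dex, and 10 lower and 2 higher with Dex. HSPA5, the chaperone BiP, fell from 928 to 415 CPM (log2 fold change -1.16, SE 0.0664, adjusted p = 3.93e-13) and by 1.08 with Dex (adjusted p = 1.4e-12). CALR, another chaperone, fell by 0.66 and 0.83, and EDEM1, which acts in degradation of misfolded proteins, by 0.68 and 0.77 (all adjusted p under 0.05). In siHP1γ cells, 5 were higher and 1 lower without Dex and 4 higher and 0 lower with Dex, among them the sensor ERN1 at 0.35 and 0.63 (adjusted p = 0.0434 and 0.00075).

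For eIF2 and its regulators, 5 of 19 were lower and 1 higher in siPRMT5 cells without Dex, and 4 lower and 5 higher with Dex, near the 21.6% and 21.9% of all genes lower and, with Dex, the 20.6% higher. EIF2B2, a subunit of the exchange factor that phosphorylated eIF2 blocks, fell by 0.99 and 1.11 (adjusted p = 2.33e-08 and 3.9e-09), and EIF2D, a factor of initiation and recycling, by 0.85 and 0.66 (adjusted p = 4.74e-07 and 1.43e-05). In siHP1γ cells, 6 were lower and 2 higher without Dex and 2 lower and 0 higher with Dex. NCK1, an adaptor, was lower there by -0.59 and -0.42 (adjusted p = 1.28e-05 and 0.000761), while OMA1, the mitochondrial protease of this pathway, was at -0.40 without Dex in siHP1γ cells (adjusted p = 0.0273) and 0.62 with Dex in siPRMT5 cells (adjusted p = 0.000234).

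Other folate, methionine and glycine genes were mixed, with 5 of 21 lower and 3 higher in siPRMT5 cells without Dex, 5 and 4 with Dex, and 8 and 1, then 3 and 1, in siHP1γ cells. The siPRMT5 counts were near the 21.6% and 21.9% of all genes lower, and 15.2% and 12.3% of all genes were lower in siHP1γ cells. TYMS, which makes thymidylate, fell by 0.70 and 0.68 in siPRMT5 cells and by 0.68 and 0.60 in siHP1γ cells (all adjusted p under 0.05). MAT2B, the regulatory subunit of methionine adenosyltransferase, rose by 0.54 and 0.59 in siPRMT5 cells (adjusted p = 4.16e-07 and 1.01e-07).

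Among 16 other amino acid transporters, 3 were lower and 4 higher in siPRMT5 cells without Dex, and 5 and 5 with Dex, beside 21.6% of all genes lower and 20.6% higher without Dex and 21.9% and 20.6% with Dex. SLC38A1, the glutamine carrier SNAT1, fell by 1.18 and 0.66 (adjusted p = 1.08e-10 and 1.89e-06). SLC43A3, counted in this list although it carries purine bases and not amino acids, fell by 1.56 and 1.24 (adjusted p = 1.75e-11 and 5.33e-10). SLC1A3, a glutamate and aspartate carrier, rose by 1.01 and 1.34 in siPRMT5 cells and by 1.23 and 1.11 in siHP1γ cells (all adjusted p under 0.05). SLC7A2, a second arginine carrier, was at -0.24 without Dex (adjusted p = 0.0679) and 0.89 higher with Dex in siPRMT5 cells (adjusted p = 7.13e-09). In siHP1γ cells, 7 of the 16 were higher without Dex and 3 with Dex, and 0 were lower.

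NRF2, which also drives SLC7A11, was read from 18 genes, itself, its inhibitor KEAP1 and targets, of which 3 were lower and 6 higher in siPRMT5 cells without Dex and 3 lower and 2 higher with Dex, beside 21.6% of all genes lower and 20.6% higher without Dex and 21.9% and 20.6% with Dex. GCLC, the catalytic subunit of glutathione synthesis, rose by 0.38 and 1.08 (adjusted p = 0.000367 and 1.21e-11), and GSR, which reduces glutathione, by 0.44 and 0.65 (adjusted p = 0.000915 and 7.51e-06). TXNRD1, thioredoxin reductase, fell by 0.57 and 0.63 (adjusted p = 7.79e-09 and 1.57e-09). In siHP1γ cells 5 were lower and 2 higher without Dex and 3 lower and 4 higher with Dex, with HMOX1, which degrades heme, higher by 0.60 and 0.45 (adjusted p = 5.07e-05 and 0.0034).

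Some of these genes have pseudogenes with counts of their own or exons that overlap another gene, and sharing of reads with them was not measured. Pseudogenes named for a member held 31.5% as many counts as MTHFD1 itself, 22.4% for XPOT, 15.5% for PSPH, 8.28% for PSAT1, 7.92% for MTHFD2, 6.21% for ATF4 and 3.59% for SHMT1. When these counts were added, the calls of the depletions held for each of these genes but PSPH. Exons of DDIT3, VLDLR, EIF2AK3, PPP1R15B, PYCR1, SHMT1, SHMT2, MTHFD1, MTHFD2, SLC7A5, SLC1A5, SLC6A9 and ATF5 overlap a gene on the other strand in GENCODE 44. On the same strand, exons of PYCR1 share 408 bases with MYADML2, and those of DDIT3 share 105 bases with ENSG00000285133. Exons of SHMT1 and ATF5 overlap MIR6778 and MIR4751 on the same strand.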

How the data were processed

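RNA-seq libraries of 18 samples were grouped by the siRNA, treatment and replicate named in the labels. The authors mapped reads on hg38 with Bowtie2 2.4.2 and counted them per gene with htseq-count 0.9.1, and they deposited raw counts per symbol, not normalized. Bowtie2 does not split reads over introns, so junction reads can be lost. The strand setting and annotation are not given in the sources used here. A table of the authors' own DESeq2 comparisons (mean normalised count, log2 fold change, test statistic, p-value and FDR per gene) was not used.

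Genes were kept by edgeR's filterByExpr (15298 genes), scaled by TMM and tested in one quasi-likelihood fit of all 18 libraries with 12 residual degrees of freedom (edgeR 4.0.16, R 4.3.3), with Benjamini-Hochberg adjustment over all genes tested. Depletions and differences of Dex response were called at an adjusted p under 0.05. SEs were obtained from each log2 fold change and its F value. An exact permutation test of 3 against 3 cannot go below p = 0.1. The p-values of the fit set a difference against the spread between these replicate libraries, as estimated in the fit. The code was tested on simulated counts. The members and lists were chosen with earlier results of these data known. All members are named; from each list, those named are up to 4 called in a depletion with the largest change and a mean level of 5 CPM or more. Some genes that this rule names are not reported here. Alternatives were DESeq2 1.42.0 (its own test, or its size factors in edgeR), library size only, other filters, fewer libraries in the fit, other thresholds, the replicate block and leaving out each library.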

Additional observations from a re-analysis of the deposited data

Results flagged for a closer look

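The Dex response of DDIT4 differed between siHP1γ and siNS cells by -0.73 on the log2 scale (SE 0.125, adjusted p = 0.00404, edgeR's quasi-likelihood test of the interaction), since the mean rose from 97.1 to 196 CPM in siNS cells and was 94.0 and 114 CPM in siHP1γ cells. All 3 siHP1γ Dex libraries were below all 3 siNS Dex libraries. The GR target TSC22D3 gave -1.003 in the same edgeR test (adjusted p = 0.00104). FKBP5, the other GR target read as a check, gave -0.44 and did not pass (adjusted p = 0.0588).

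The Dex response of VLDLR differed between siPRMT5 and siNS cells by -0.57 (SE 0.120, adjusted p = 0.00685, edgeR), with means of 60.6 and 35.5 CPM without and with Dex in siPRMT5 cells and 43.98 and 38.0 CPM in siNS cells.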

How the results depend on the processing

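With a fold change of at least 1.5, the members called fell to 14 and 14 for siPRMT5 against siNS (without and with Dex), 7 and 7 for siHP1γ against siNS, 13 and 15 for siPRMT5 against siHP1γ, and 0 (edgeR) for the difference of the siPRMT5 Dex response. In that edgeR test of the difference, 9 of 35 members and 2912 of all 15298 genes tested had an unadjusted p under 0.05. For Dex at an adjusted p under 0.05 with no fold limit, 4, 2 and 7 were called in siNS, siHP1γ and siPRMT5 cells. DESeq2 called 2 members in the siPRMT5 difference of Dex response, and leaving out 1 library gave 1 to 2 (2 without siHP1γ Dex replicate 1, where SLC3A2 was added). No call changed sign in the alternatives run.

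Of the members called, 24 of 27 and 20 of 25 held under every alternative other than the thresholds above, wherever they were tested, in siPRMT5 cells without and with Dex, and 10 of 14 and 11 of 16 in siHP1γ cells. Those lost were ATF3, PPP1R15A and PSPH, then STC2, CTH, PSPH, MTHFD1L and MTHFD2, then XPOT, PSAT1, MTHFD1 and SLC3A2, then PPP1R15A, ALDH18A1, MTHFD1, SLC3A2 and SLC6A9. STC2 was not tested with at least 10 counts in every library. Without a filter on low counts, NUPR1 was also called with Dex in siPRMT5 and siHP1γ cells. SLC38A2 (means of 672 CPM in siPRMT5 Dex and 582 CPM in siNS Dex) was added in siPRMT5 cells with Dex in that setting. It was also added there with only the libraries compared and in some fits that left out 1 library. DESeq2 added ALDH18A1 in siPRMT5 cells with Dex. The causes were not tested.

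Replicate numbers did not pair the libraries: 13 of 45 same-numbered pairs had deviations correlated over 0.1, and 7 of 18 libraries correlated best with their own number. With the replicate block, siHP1γ against siNS with Dex had 15 members called (PPP1R15A lost), and no other call changed. Low counts limit ASNS, STC2 and SLC6A9.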
